A study of Mus musculus with 12 samples.

Results

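Potassium channel subunits were examined in hearts of Mrpp3 knockout and control mice. The members were every locus with a gene name that starts with Kcn followed by lower-case letters, which gave 99 of the 44450 loci listed for each total RNA library. Of these, 94 encode subunits or regulators of potassium channels and 5 are noncoding transcripts named after a neighbouring channel gene. Controls were C57BL/6N mice aged 11 weeks with the genotype Mrpp3loxP/loxP, and knockouts were of the same age and strain with the genotype Mrpp3loxP/loxP, +/Ckmm, so that both groups carry the floxed alleles and only the knockouts carry Cre. Cre is driven by the muscle creatine kinase promoter, which acts in heart and skeletal muscle cells and not in the vessels, fibroblasts and immune cells of the heart. There were 3 libraries of heart RNA in each group, while the 6 PARE libraries, which read cut RNA ends, were not analysed here. MRPP3 cuts RNA as part of mitochondrial RNase P, the enzyme that frees tRNAs from the long transcripts of mitochondrial DNA. Its gene Prorp, listed as 1110008L16Rik, stood at 2.64 to 3.49 FPKM in the controls and 0.441 to 0.701 FPKM in the knockouts. The labels do not say whether the libraries of a group came from separate animals, so p-values measure only the spread between these samples, which may be technical. Knockout replicate 2 stood apart from the other knockouts in atrial and blood transcripts, and results that rest on it are given with and without it. Levels are in FPKM, a fragment count divided by transcript length and library size.

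Potassium channels let potassium ions leave the heart muscle cell and so end each action potential and hold the resting potential. Voltage-gated pores of the Kv families open on depolarization and carry the transient and delayed outward currents. Inward rectifiers of the Kir families set the resting potential or answer to ATP and to acetylcholine. Pores opened by calcium or sodium, leak channels with paired pore domains, and accessory subunits that change the traffic and gating of the pores complete the set. In the mouse ventricle a fast transient outward current, carried by Kcnd2 and Kcnd3 with the accessory protein KChIP2, dominates early repolarization.

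Transcripts of these channels were mostly lower in the knockout hearts, where fewer muscle cells and less channel RNA per muscle cell cannot be told apart. Among members that passed the test with all 6 libraries, the largest falls were in Kcnd2, Kcnv2, Kcnj2 and Kcnip2. Kcnd2 is a pore of the fast transient outward current and Kcnv2 a modifier of other Kv channels. Kcnj2 is the main pore of the resting inward rectifier current and Kcnip2 encodes KChIP2. Without knockout replicate 2, Kcnj3 also passed and had the largest fall (limma log2 fold change -2.98), ahead of Kcnd2 (-2.48) and Kcnv2 (-2.45). Kcnip2 (-1.39) then lay behind Kcnj2 (-1.90), Kcnn2 (-1.64) and Kcnj5 (-1.45). Tests were run on members that reached 1 FPKM in 3 or more of the 6 libraries. Of 24 such members, 14 were lower in the knockout, 1 was higher (Kcne4) and 9 did not pass the test (limma, Benjamini-Hochberg adjusted p under 0.05 over 12181 loci). Kcnn1 was also lower without overlap of the groups and did not pass, so that 15 members were lower in each knockout than in any control, where 28.7% of loci tested were. The 14 make 58.3% of the members tested, where 19.5% of all loci tested were lower and 16.1% were higher. The median log2 fold change of the 24 members was -0.73, against -0.02 over all loci. Kcnv2 passed the filter through the controls alone and Kcne4 through the knockouts alone. Among the 19 members with at least 1 FPKM in all 6 libraries, 11 were lower and none was higher, where 19.6% of all such loci were lower and 15.9% higher. A fold change compares knockout with control in log2(FPKM + 0.5), so that changes of low genes come out too small.

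The promoters of members that changed are shown for 3 of these, Kcnd2, Kcnip2 and Kcnj2, and for Kcnj4, an inward rectifier of the Kcnj2 family that moved the opposite way. Each line holds the 250 bases before an annotated start, 5′ to 3′, from RefSeq (GRCm38.p6). The windows are chr6:21215096-21215345 on the plus strand for Kcnd2, chr19:45816064-45816313 on the minus strand for Kcnip2, chr11:111065914-111066163 on the plus strand for Kcnj2 and chr15:79505242-79505491 on the minus strand for Kcnj4. For Kcnip2 and Kcnj4 this is a start inside the annotated gene. Capitals mark matches on either strand to GGGCGG, the core of Sp1 sites, to CCAAT, the CCAAT box, and to CACGTG, an E-box.

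Kcnd2: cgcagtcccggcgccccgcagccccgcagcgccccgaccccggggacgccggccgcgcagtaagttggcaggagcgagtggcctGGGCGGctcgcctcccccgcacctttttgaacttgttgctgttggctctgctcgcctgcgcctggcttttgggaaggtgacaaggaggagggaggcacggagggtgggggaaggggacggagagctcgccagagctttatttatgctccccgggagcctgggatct
Kcnip2: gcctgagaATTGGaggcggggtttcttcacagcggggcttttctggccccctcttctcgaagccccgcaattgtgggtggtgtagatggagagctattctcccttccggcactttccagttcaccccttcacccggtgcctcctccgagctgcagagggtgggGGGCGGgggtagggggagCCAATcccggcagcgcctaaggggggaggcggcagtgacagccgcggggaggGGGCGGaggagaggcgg
Kcnj2: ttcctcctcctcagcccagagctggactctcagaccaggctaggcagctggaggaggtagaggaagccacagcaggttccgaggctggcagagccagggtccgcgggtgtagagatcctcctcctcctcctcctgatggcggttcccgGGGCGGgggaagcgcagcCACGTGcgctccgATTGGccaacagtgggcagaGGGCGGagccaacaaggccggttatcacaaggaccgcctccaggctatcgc
Kcnj4: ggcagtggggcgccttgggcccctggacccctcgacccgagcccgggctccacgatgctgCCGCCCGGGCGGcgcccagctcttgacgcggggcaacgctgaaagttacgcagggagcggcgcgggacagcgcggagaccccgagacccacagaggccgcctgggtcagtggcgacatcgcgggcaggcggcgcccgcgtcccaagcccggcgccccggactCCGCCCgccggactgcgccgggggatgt

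The table holds windows for 7 of the lower members, Kcna5, Kcna7, Kcnd2, Kcnd3, Kcnip2, Kcnj2 and Kcnj12. Their share of G and C ran from 48.4% (Kcna7) to 68.8% (Kcnd2) with a median of 62.8%, where the median over 32851 promoter windows of the same length was 52.4%, and the window of Kcnj4 had 77.2%. GGGCGG stood in 3 of the 7 (Kcnd2, Kcnip2 and Kcnj2) and in 32.7% of all windows, and also in that of Kcnj4. CCAAT stood in 2 of the 7 (Kcnip2 and Kcnj2) and in 33.8% of all. CACGTG stood in 1 of the 7 (Kcnj2) and in 6.02% of all. The TATA box TATAAA (12.4% of all windows), the nuclear receptor half-site AGGTCA (14.0%), TGATGNAA, the core of the sites bound by ATF4 (3.45%), and a MEF2 core, CTA and TAG with any 4 bases between them (3.20%), were searched on both strands too. None of them matched in the windows of these 7 members. A match describes letters in a window and not a bound site.

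Among the 30 voltage-gated pore genes, 7 were measured well enough to test, and 6 of these fell. Kcnd2 had 13.8, 8.69 and 7.88 FPKM in the controls and 1.95, 1.30 and 0.894 FPKM in the knockouts. Every knockout library lay far below every control, with a limma log2 fold change of -2.50 (adjusted p = 0.00084, SE 0.27). Kcnd3, the other pore of that current, had a smaller difference. It had 4.81, 4.98 and 3.94 FPKM in the controls and 2.55, 3.14 and 2.99 FPKM in the knockouts (limma, -0.58 ± 0.14 SE in log2 fold, adjusted p = 0.017). Kcnd3 thus fell without overlap of the groups, but its call was lost without control replicate 1 or 2 or knockout replicate 1 (adjusted p = 0.064, 0.073 and 0.052) and when libraries were scaled to one summed FPKM (adjusted p = 0.11). In the controls Kcnd2 stood at 2.87, 1.74 and 2.00 times the level of Kcnd3, and in the knockouts at 0.763, 0.413 and 0.299 times. The order of these pores was thus reversed in each of the 3 knockouts, a description of the ratio with no test of its own. Kcnd2 spans 21215346 to 21729805 of chromosome 6 and Kcnd3 105451890 to 105674002 of chromosome 3 (GRCm38).

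Kcnip2 was the most abundant member in the controls. It had 73.9, 66.8 and 67.2 FPKM there and 21.9, 9.36 and 31.1 FPKM in the knockouts. The knockouts were all lower and spread widely, with replicate 2 lowest (limma, -1.87 ± 0.38 SE in log2 fold, adjusted p = 0.0090). Without that replicate the log2 fold change was -1.39 (adjusted p = 0.0015). Kcnip2 lies on chromosome 19 from 45792346 to 45816422 and encodes a calcium-binding protein that brings Kcnd2 and Kcnd3 channels to the cell surface. Its FPKM divided by the summed FPKM of Kcnd2 and Kcnd3 was 3.97, 4.89 and 5.69 in the controls and 4.87, 2.11 and 8.01 in the knockouts. The ranges of this ratio overlap, so the accessory and the pore transcripts were lower together without a separation of the ratio. DPP6 and DPP10, further partners of these pores, were near or at 0, with Dpp10 listed at 0 in all libraries and Dpp6 above 0 only in knockout replicates 2 and 3 (0.0752 and 0.0284 FPKM).

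Pores of the Kv1 family fell too. Kcna5, a pore of the ultrarapid delayed rectifier, had 9.26, 8.94 and 9.19 FPKM in the controls and 3.90, 2.08 and 5.12 FPKM in the knockouts. Its groups were well apart (limma, -1.27 ± 0.26 SE in log2 fold, adjusted p = 0.0097). Kcna7, a Kv1 pore of striated muscle, had 2.15, 3.05 and 3.68 FPKM in the controls and 1.33, 1.43 and 1.44 FPKM in the knockouts. Its call (limma, -0.84 ± 0.19 SE in log2 fold, adjusted p = 0.013) was lost without control replicate 2 (adjusted p = 0.052). Kcna4, the pore of the slow transient outward current, was under the filter, at 0.458, 0.599 and 1.16 FPKM in the controls and 0.794, 0.929 and 0.645 FPKM in the knockouts. Its groups overlapped.

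**Figure D1:**
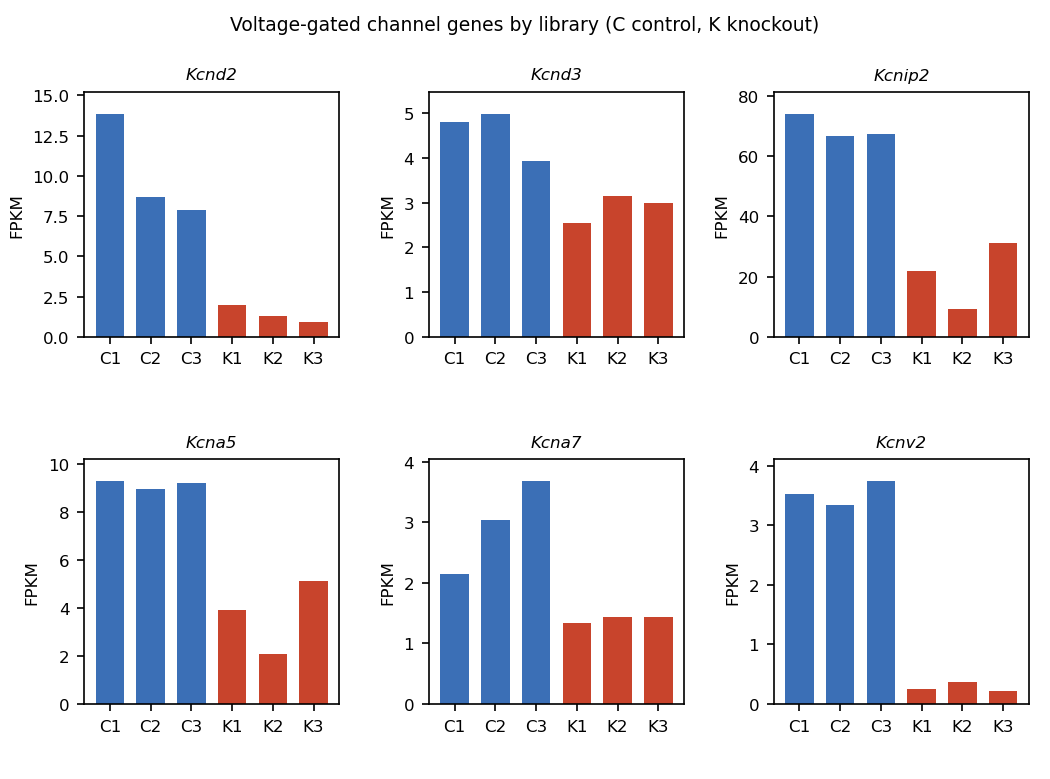
FPKM of 6 voltage-gated channel genes (one per panel) in each library, with controls C1 to C3 in blue and knockouts K1 to K3 in red. Bars start at 0, and in every panel each red bar is lower than each blue one, with Kcnd2 going from 7.88 to 13.8 FPKM in the controls to 0.894 to 1.95 FPKM in the knockouts.

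The silent modifiers, which form no channel alone and change the gating of other Kv pores, were both lower where they could be tested. Kcnv2 had 3.53, 3.35 and 3.74 FPKM in the controls and 0.252, 0.369 and 0.223 FPKM in the knockouts. The controls were tight and the knockouts all below 0.4 FPKM, giving a limma log2 fold change of -2.37 (adjusted p = 0.00021, SE 0.16). Kcnv2 entered this test through the controls alone, so its adjusted p is not ranked against those of other members. In a fit with no filter on low values its limma adjusted p was 0.0014. Kcng2 was far more abundant, at 29.4, 33.7 and 27.7 FPKM in the controls and 19.9, 16.6 and 19.5 FPKM in the knockouts. Its fall was smaller (limma, -0.68 ± 0.13 SE in log2 fold, adjusted p = 0.0071) and its groups did not overlap. Kcng2 thus held rank 4 in level among the 94 subunit genes in both groups, while Kcnv2 moved from rank 17 to rank 38. The other 8 silent modifiers were under the filter, and 3 of them were listed at 0 in all libraries.

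**Figure D2:**
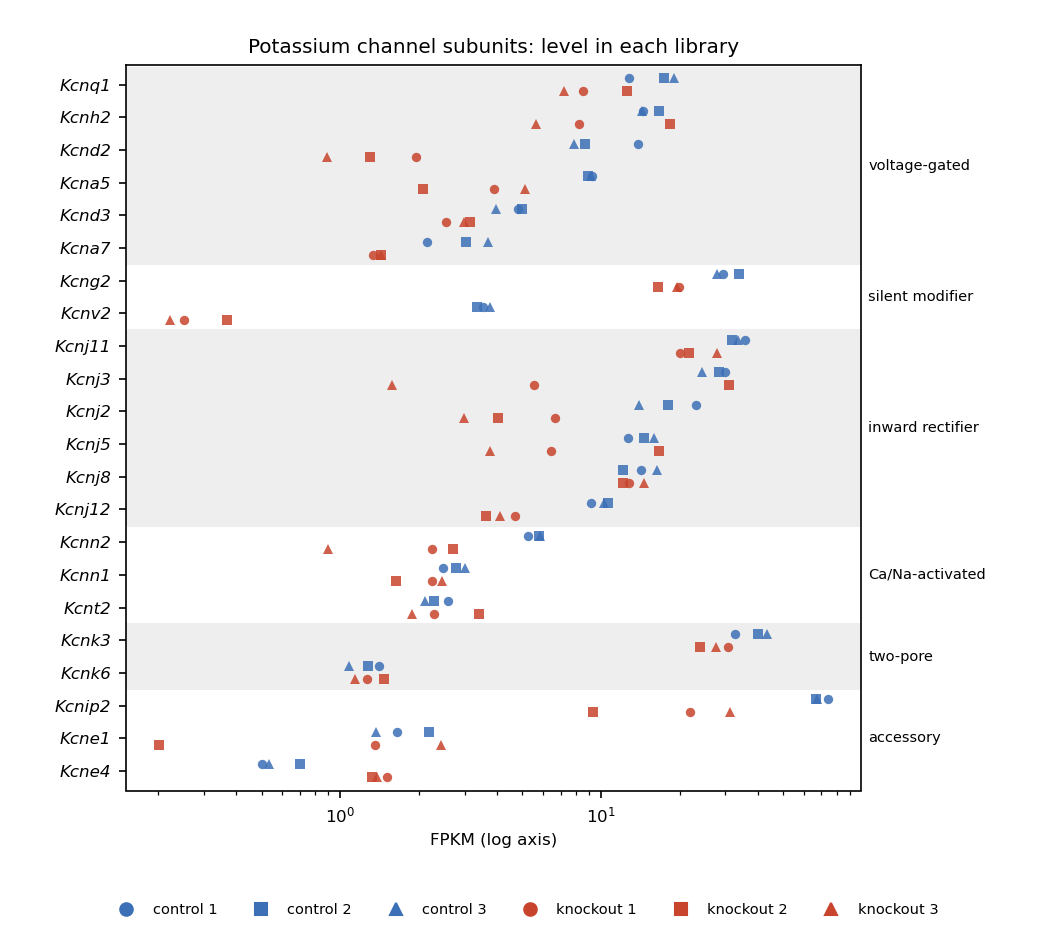
FPKM (log axis) of the tested subunit genes named in the text, one row each, grouped by class, with controls in blue, knockouts in red and marker shape giving the replicate. Kcnd2, Kcnv2, Kcnj2 and Kcnip2 show the widest gaps between colours, and the square of knockout replicate 2 stands among or above the controls for Kcnj3, Kcnj5 and Kcnh2.

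Of the 15 inward rectifier pores, 6 were tested, 3 fell and none rose. Kcnj2 had 23.1, 18.1 and 14.0 FPKM in the controls and 6.66, 4.04 and 2.98 FPKM in the knockouts. The highest knockout was below the lowest control by more than the range of the knockouts (limma, -1.94 ± 0.29 SE in log2 fold, adjusted p = 0.0026). Kcnj12, which joins Kcnj2 in the resting inward rectifier current, had 9.14, 10.6 and 10.3 FPKM in the controls and 4.68, 3.62 and 4.12 FPKM in the knockouts (limma, -1.18 ± 0.13 SE in log2 fold, adjusted p = 0.00093). Both calls held with any single library left out. Kcnj2 lies on chromosome 11 from 111066164 to 111076825.

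Kcnj4, the third strong rectifier of the same family, moved the other way from a level close to nothing. It had 0.0451, 0.0341 and 0.0335 FPKM in the controls and 1.30, 0.832 and 3.20 FPKM in the knockouts. The knockouts were all above the controls, and replicate 3 was highest. Kcnj4 reached 1 FPKM in only 2 libraries and so was not among the loci tested. In a fit with no filter on low values it was called higher (limma adjusted p = 0.017), where 8% of 22503 loci were higher and 9.45% lower. Multiplied by the relative depth of each library, the 3 control values became 0.0451, 0.0450 and 0.0453, the same to within their rounding of relative depth. The controls thus rest on one small number of fragments each, a number that the values do not give, and no fold is printed against them. Kcnj4 made up 0.118 to 0.140% of the summed FPKM of Kcnj2, Kcnj4 and Kcnj12 in the controls and 10.2, 9.80 and 31.1% in the knockouts. The sum itself was 24.3 to 32.3 FPKM in the controls and 8.49 to 12.6 FPKM in the knockouts, so the rise of Kcnj4 was smaller than the falls of the others.

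**Figure D3:**
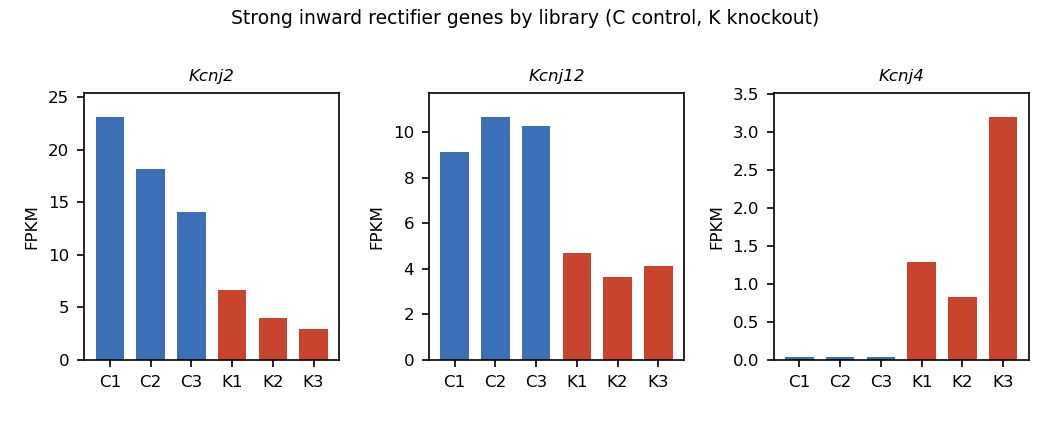
FPKM of Kcnj2, Kcnj12 and Kcnj4, one panel each with its own scale from 0, in controls C1 to C3 (blue) and knockouts K1 to K3 (red). Kcnj2 and Kcnj12 are lower in each knockout, while Kcnj4 goes from at most 0.0451 FPKM in the controls to 0.832 to 3.20 FPKM.

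The channel that closes when ATP is high pairs a pore, Kcnj11 in heart muscle or Kcnj8 in vessels, with a sulfonylurea receptor, Abcc8 or Abcc9. Kcnj11 had 35.8, 31.8 and 33.4 FPKM in the controls and 20.0, 21.8 and 27.7 FPKM in the knockouts (limma, -0.54 ± 0.15 SE in log2 fold, adjusted p = 0.026). This call was lost without control replicate 1, 2 or 3 or knockout replicate 1 (adjusted p = 0.092, 0.068, 0.078 and 0.078), with the replicate block (0.056) and when libraries were scaled to one sum (0.10). Kcnj8 had 14.2, 12.1 and 16.4 FPKM in the controls and 12.8, 12.2 and 14.7 FPKM in the knockouts. Its groups overlapped, and the 95% interval of its log2 fold change ran from -0.44 to 0.24. Abcc9, the receptor subunit SUR2, fell, from 73.9, 77.7 and 80.6 FPKM to 29.7, 18.6 and 29.9 FPKM (limma, -1.58 ± 0.19 SE in log2 fold, adjusted p = 0.0013). Abcc8, the receptor SUR1, had 7.07, 6.52 and 6.24 FPKM in the controls and 7.85, 15.6 and 8.38 FPKM in the knockouts and did not pass (adjusted p = 0.10). The ratio of Abcc9 to Kcnj11 was 2.06 to 2.44 in the controls and 0.855 to 1.48 in the knockouts. The ratio of Abcc8 to Abcc9 was 0.0774 to 0.0957 in the controls and 0.264, 0.839 and 0.281 in the knockouts.

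Kcnj3 and Kcnj5, which together form the acetylcholine-gated channel of atrial and nodal cells, split the knockouts. Kcnj3 had 30.0, 28.4 and 24.3 FPKM in the controls and 5.51, 31.1 and 1.58 FPKM in the knockouts. Kcnj5 had 12.7, 14.7 and 16.01 FPKM in the controls and 6.44, 16.6 and 3.77 FPKM in the knockouts. For both genes knockout replicates 1 and 3 were far below the controls and replicate 2 was at or above them, so neither passed (limma adjusted p = 0.11 and 0.15). Without knockout replicate 2 the log2 fold changes were -2.98 and -1.45 (adjusted p = 0.0026 and 0.0037). Kcnh2, the pore of the rapid delayed rectifier, had the same order, with 14.5, 16.6 and 14.3 FPKM in the controls and 8.21, 18.5 and 5.66 FPKM in the knockouts. It did not pass with all libraries (log2 fold change -0.63, adjusted p = 0.22) and had -1.09 without knockout replicate 2 (adjusted p = 0.0043).

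Kcnq1, the pore of the slow delayed rectifier, was lower in all 3 knockouts. It had 12.8, 17.4 and 19.0 FPKM in the controls and 8.55, 12.6 and 7.22 FPKM in the knockouts, where the highest knockout, replicate 2, came close to the lowest control (limma, -0.78 ± 0.23 SE in log2 fold, adjusted p = 0.033). The call was lost without control replicate 2 or 3 or knockout replicate 1 or 3 (adjusted p = 0.10, 0.11, 0.091 and 0.079), with no filter (0.070) and when libraries were scaled to one sum (0.10). The noncoding Kcnq1ot1 runs antisense within Kcnq1 and did not pass, at 1.28 to 1.34 FPKM in the controls and 1.19 to 1.65 FPKM in the knockouts. The sources used here do not say whether counting was by strand, so fragments of this pair may not be told apart. Kcne1, the accessory subunit of the slow delayed rectifier, had 1.65, 2.19 and 1.37 FPKM in the controls and 1.36, 0.203 and 2.43 FPKM in the knockouts. Its groups overlapped, with replicate 2 again apart from the other knockouts.

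Knockout replicate 2 was also the library with the highest summed levels of atrial and blood markers. Myl7, the atrial light chain, had 911 FPKM there, 43.5 and 0.0961 FPKM in knockout replicates 1 and 3 and at most 1.90 FPKM in the controls. Bmp10, a growth factor of atrial muscle, had 386 FPKM there, 0.785 and 4.19 FPKM in the other knockouts and at most 0.0577 FPKM in the controls. The 8 atrial markers summed to 50.6 to 129 FPKM in the controls and to 2078, 14360 and 2342 FPKM in the knockouts, of which Nppa, a gene also made by stressed ventricles, gave most. Of the 6 atrial markers that could be tested, 2 were higher in the knockout (Nppa and Dkk3). Dkk3 passed the filter through the knockouts alone. Its call was lost without certain libraries (limma adjusted p up to 0.091) and with no filter (0.080). Among the defining markers, Sln was listed at 0 in control replicates 2 and 3 and knockout replicate 3, Bmp10 in control replicates 1 and 2 and Myl7 in control replicate 2. The 5 blood markers summed to 21895 FPKM in that library against 622 to 2902 FPKM in the others. The part of atrial tissue in the high Kcnj3, Kcnj5 and Kcnh2 of that library was not tested. Without it, 16 members were lower and 1 was higher, where 19.6% of all loci were lower and 17.7% higher. Kcnj3, Kcnj5 and Kcnh2 entered and Kcnk3 left.

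**Figure D4:**
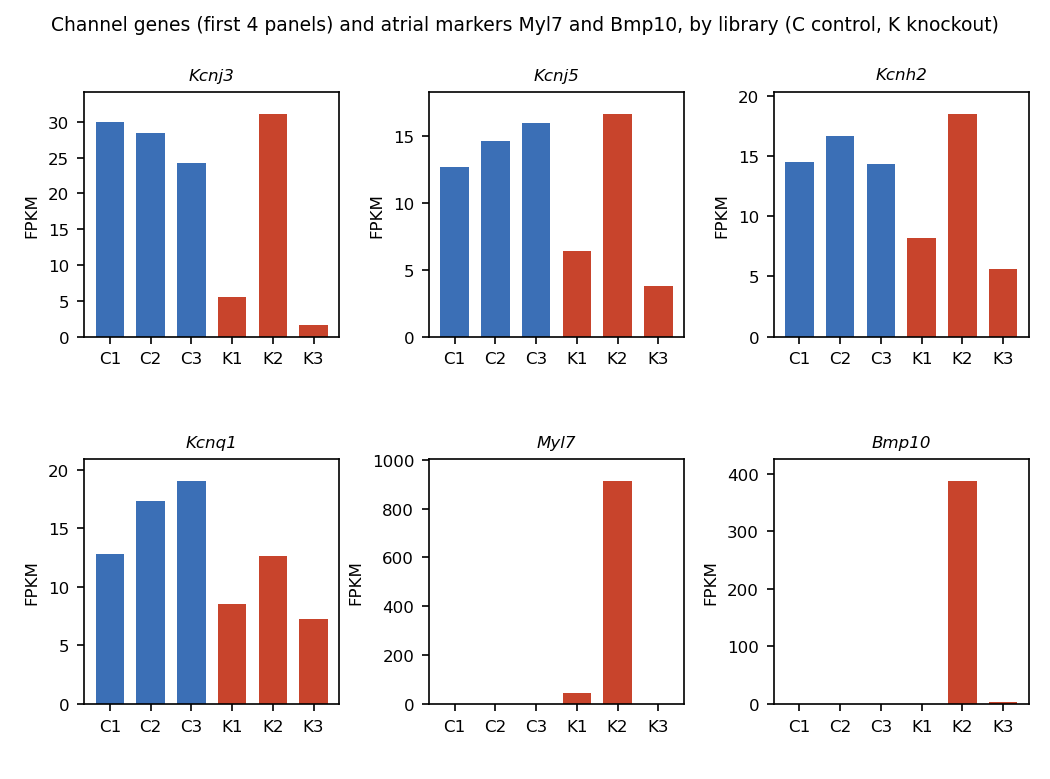
FPKM of Kcnj3, Kcnj5, Kcnh2 and Kcnq1 and of the atrial markers Myl7 and Bmp10, one panel each with its own scale from 0, in controls C1 to C3 (blue) and knockouts K1 to K3 (red). Knockout replicate 2 has 911 FPKM of Myl7 and 386 FPKM of Bmp10 and stands at 31.1 FPKM of Kcnj3, where the other knockouts have 5.51 and 1.58 FPKM.

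Among the 8 pores opened by calcium or sodium, 3 were tested and 1 fell. Kcnn2, a small-conductance calcium-activated pore found in atrial and ventricular muscle, had 5.24, 5.77 and 5.84 FPKM in the controls and 2.25, 2.72 and 0.899 FPKM in the knockouts. Each knockout was below each control (limma, -1.40 ± 0.29 SE in log2 fold, adjusted p = 0.010). Kcnn1, of the same family, had 2.47, 2.79 and 3.02 FPKM in the controls and 2.25, 1.63 and 2.45 FPKM in the knockouts, and its difference did not pass (log2 fold change -0.33, 95% interval -0.72 to 0.06). Kcnt2, opened by sodium, overlapped between groups at 2.12 to 2.59 FPKM in the controls and 1.89 to 3.40 FPKM in the knockouts. Kcnma1, the large-conductance pore, and its smooth muscle subunit Kcnmb1 stayed at or below 0.300 FPKM in every library. Kcnn4, the pore of immune and red blood cells, was at 0.0479 to 0.109 FPKM in the controls and 0.131 to 0.260 FPKM in the knockouts, groups that did not overlap, and it was too low to test.

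Leak channels with paired pore domains had 14 genes, of which 2 were tested. Kcnk3, the acid-sensitive leak channel TASK-1, was second in level in the controls and first in the knockouts. It had 32.6, 40.1 and 43.3 FPKM in the controls and 30.6, 23.9 and 27.6 FPKM in the knockouts (limma, -0.49 ± 0.15 SE in log2 fold, adjusted p = 0.043). The gap between the lowest control and the highest knockout was small, and the call was lost without control replicate 2 or 3 or any knockout replicate (adjusted p = 0.14, 0.15, 0.05001, 0.073 and 0.068). It was also lost with no filter (0.065), with scaling to one sum (0.15) or by median ratios (0.057) and with the replicate block (0.092). Kcnk6 did not differ beyond the spread, at 1.08 to 1.41 FPKM in the controls and 1.14 to 1.47 FPKM in the knockouts (95% interval of the log2 fold change -0.36 to 0.41). Kcnk2, the stretch-activated TREK-1, and Kcnk1 were under the filter. Kcnk2 had 0.547, 0.594 and 0.369 FPKM in the controls and 0.255, 0.120 and 0.348 FPKM in the knockouts, and Kcnk1 0.293, 0.253 and 0.218 against 0.130, 0 and 0.0574 FPKM. Both were lower in each knockout, and Kcnk1 alone of them passed in the fit with no filter (log2 fold change -0.43, adjusted p = 0.036).

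Kcne4 was the 1 tested member that rose. This accessory subunit, which dampens Kv1 and Kcnq1 channels in cell systems, had 0.503, 0.702 and 0.534 FPKM in the controls and 1.52, 1.32 and 1.38 FPKM in the knockouts. The groups were tight and apart (limma, 0.82 ± 0.17 SE in log2 fold, adjusted p = 0.0098), and the call held with any single library left out. Those fits kept the filter as set on all 6 libraries, which Kcne4 passed through the knockouts alone. Kcne3, also accessory, had 0, 0.116 and 0 FPKM in the controls and 0.430, 0.672 and 0.126 FPKM in the knockouts, and did not pass with no filter (adjusted p = 0.088). The beta subunit Kcnab1 overlapped between groups at 0.376 to 0.572 FPKM in the controls and 0.522 to 0.830 FPKM in the knockouts. Of the 17 accessory genes, 3 were tested.

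**Figure D5:**
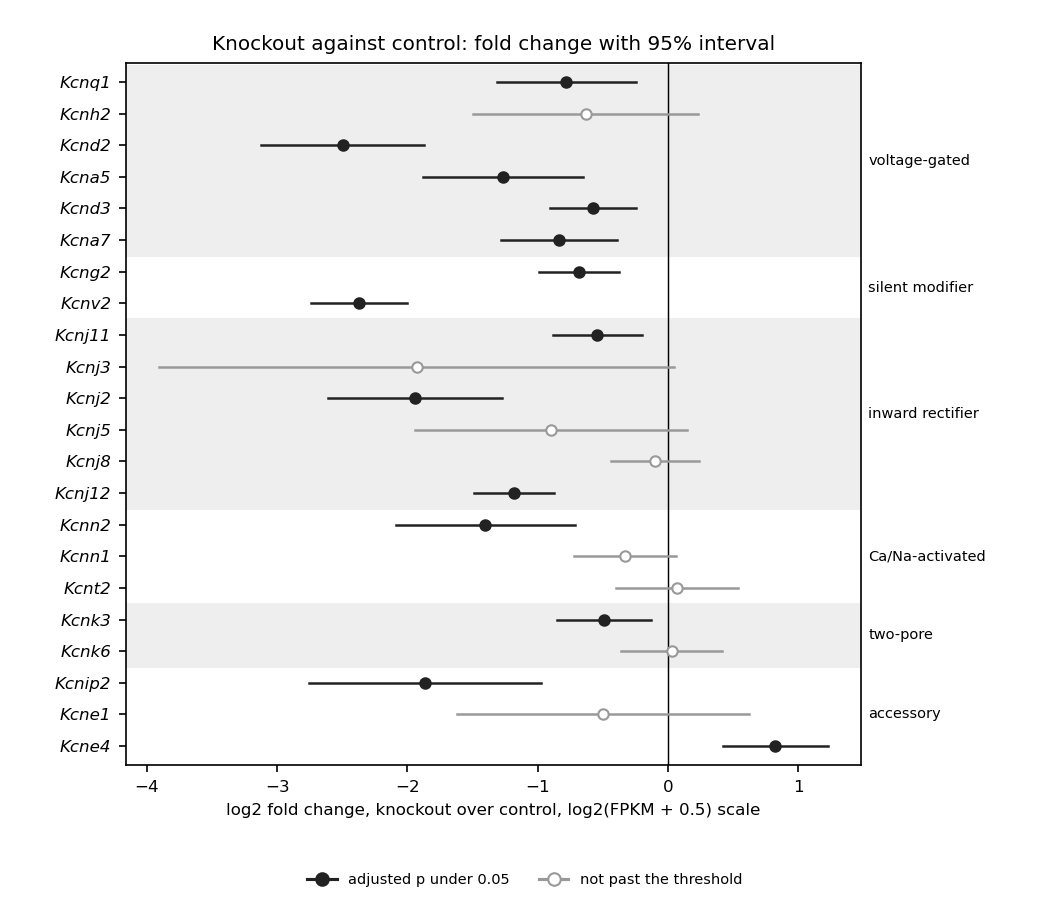
Log2 fold change (knockout over control, log2(FPKM + 0.5) scale) of the tested subunit genes named in the text with the 95% interval from limma, filled where the adjusted p is under 0.05. The filled points on the left of 0 run from -2.50 (Kcnd2) to -0.49 (Kcnk3), and the one on the right is Kcne4 at 0.82.

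In sum of FPKM, the 94 subunit genes stood at 356, 354 and 346 in the controls and 182, 206 and 184 in the knockouts, so the knockout mean was 54.1% of the control mean. By class, this figure was lowest for the accessory genes, at 35.7%, which Kcnip2 dominates. It was 52.4% for voltage-gated pores, 56.1% for silent modifiers, 58.2% for inward rectifiers, 68.2% for pores opened by calcium or sodium and 72.5% for leak channels. The order of the classes rests in part on knockout replicate 2. In knockout replicates 1, 2 and 3 the inward rectifiers summed to 58.0, 90.6 and 58.7 FPKM and the voltage-gated pores to 34.7, 47.8 and 31.5 FPKM. The accessory genes summed to 27.9, 14.4 and 36.9 FPKM there and the silent modifiers to 20.3, 17.1 and 19.8 FPKM. In both groups Kcnip2, Kcnk3, Kcnj11 and Kcng2 held the first 4 ranks. Kcnd2 went from rank 11 to rank 21 and Kcnj8 from rank 10 to rank 5. Neighbouring ranks often lie within the spread of the libraries, as for Kcnj5 (14.5 ± 1.67 FPKM, SD, n = 3) and Kcnj8 (14.3 ± 2.15) in the controls.

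Of the other 75 members, 19 were listed at 0 in all libraries and 56 had some value but were under the filter, 38 of them under 0.5 FPKM in every library. Among these 56, 7 were higher and 5 lower in the knockout without overlap of the groups, which is 12.5 and 8.93%, where 10.4 and 8.27% of all 10322 such loci were. These shares are close to the background and are not a result about the members. The 7 were Kcnc1, Kcne3, Kcnh1, Kcnj4, Kcnj10, Kcnj15 and Kcnn4. Kcna1, Kcnd3os, Kcnk1 and Kcnk2 were among the 5. With no filter, 2 of the 56 passed upward (Kcnj4 and Kcnh1) and 3 downward (Kcna1, Kcnd3os and Kcnk1). Over all 22503 loci of that fit, including those above the filter, 8% passed upward and 9.45% downward. These counts too are not a result about the members. Kcna1, a Kv1 pore best known from nerve, had 1.77, 1.31 and 0.657 FPKM in the controls and 0.264, 0.424 and 0.242 FPKM in the knockouts. Kcnh1 had at most 0.0384 FPKM in the controls and 0.159, 0.168 and 0.168 FPKM in the knockouts. The noncoding Kcnd3os, whose gene overlaps the start of Kcnd3, had 0.809, 0.614 and 0.662 FPKM in the controls and 0.253, 0.187 and 0.0442 FPKM in the knockouts. As the handling of strand is not known, its fragments and those of Kcnd3 may not be told apart there. The knockout libraries were deeper, at 2.57, 2.06 and 2.19 times control replicate 1 against 1.32 and 1.35 times for the other controls, so a value of 0 is less certain in a control.

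Genes that work with these channels were taken from a list of 51 loci. Of 39 tested, 10 fell, 6 rose and 23 did not pass, with a median log2 fold change of -0.05. The shares over all loci were the 19.5% lower and 16.1% higher given above. The sodium-potassium pump restores the potassium gradient. Its beta subunits Atp1b1 and Atp1b3 rose, by 1.02 and 0.53 on the log2 scale (limma adjusted p = 0.0067 and 0.012), the second lost without control replicate 3 (adjusted p = 0.054). Fxyd1, phospholemman, which restrains the pump in muscle, fell (log2 fold change -0.76, adjusted p = 0.0098), and Fxyd5, whose locus also holds a microRNA gene, rose (0.90, adjusted p = 0.012). Slc12a4, a potassium-chloride cotransporter, rose from 12.1, 13.5 and 13.0 FPKM to 30.8, 35.5 and 32.9 FPKM (limma, 1.33 ± 0.11 SE in log2 fold, adjusted p = 0.00042). Its relative Slc12a7 fell (-0.63, adjusted p = 0.042).

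Among partner and scaffold proteins, Amigo1, a partner of Kv pores, and Akap9, which anchors kinase to Kcnq1, fell by 0.52 and 0.40 on the log2 scale (limma adjusted p = 0.015 and 0.038). Ank2, ankyrin-B, fell by 0.55 (adjusted p = 0.015). Cttn, cortactin, rose by 0.72 (adjusted p = 0.0054). Of 8 tested transcription factors known to set cardiac channel genes, 3 fell and 5 did not pass, where 19.5% of all loci tested were lower. Those that fell were Irx4, Klf15 and Nfatc3, the last by 0.36 (limma adjusted p = 0.030). Klf15, which acts on the Kcnip2 gene in a daily rhythm, had 20.1, 19.9 and 14.6 FPKM in the controls and 6.22, 7.00 and 13.7 FPKM in the knockouts (limma, -1.05 ± 0.29 SE in log2 fold, adjusted p = 0.026). Irx4, a ventricular factor, had 10.7, 10.8 and 11.5 FPKM in the controls and 6.73, 1.29 and 3.90 FPKM in the knockouts (log2 fold change -1.58, adjusted p = 0.029). Irx5, known to repress Kcnd2, overlapped between groups at 1.76 to 2.17 FPKM and 0.465 to 2.33 FPKM. The calls of Akap9, Amigo1, Ank2, Slc12a7, Irx4, Klf15 and Nfatc3 were lost when certain libraries were left out. Without control replicate 1 their limma adjusted p-values were 0.13, 0.058, 0.064, 0.11, 0.076, 0.085 and 0.092 in that order. Without control replicate 2 they were 0.067 for Akap9, 0.072 for Ank2, 0.12 for Slc12a7, 0.075 for Irx4, 0.084 for Klf15 and 0.097 for Nfatc3. Without control replicate 3 they were 0.097 for Akap9, 0.10 for Slc12a7, 0.084 for Irx4 and 0.088 for Nfatc3. Without knockout replicate 1 they were 0.094 for Akap9, 0.076 for Klf15 and 0.070 for Nfatc3. Klf15 was also lost without knockout replicate 2 (0.059) and Irx4 without knockout replicate 3 (0.052). Scaling to one summed FPKM also ended the calls of Akap9 (-0.17, adjusted p = 0.36), Nfatc3 (-0.15, 0.37), Amigo1 (-0.32, 0.12), Ank2 (-0.32, 0.10) and Slc12a7 (-0.40, 0.12), given as log2 fold change and adjusted p. The replicate block ended those of Akap9 (adjusted p = 0.087), Nfatc3 (0.088), Slc12a7 (0.063), Klf15 (0.055) and Ank2 (0.0504). Median-of-ratios scaling ended Akap9 (0.053) and Slc12a7 (0.054), and no filter ended Irx4 (0.070), Klf15 (0.060) and Slc12a7 (0.078).

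Markers of the cell types in the heart moved beside these genes. The 8 heart muscle markers, not all of them confined to the ventricle, were abundant in each library, so that the tissue label holds. They summed to 34513 to 39734 FPKM in the controls and 7611 to 16601 FPKM in the knockouts, with 7 of 8 lower. Myl2 did not pass (limma adjusted p = 0.051). The calls of Myh6, Tnnt2, Myl3 and Actc1 were lost without certain libraries. These calls were also lost with no filter (limma adjusted p = 0.33, 0.27, 0.12 and 0.17), as was that of Tnni3 (0.073). Over all loci tested, 19.5% were lower and 16.1% higher. Of 6 macrophage markers 3 were higher, with sums of 95.9 to 107 FPKM in the controls and 131 to 149 FPKM in the knockouts, and of 6 fibroblast markers 3 were higher, with overlapping sums. The 6 endothelial markers overlapped in their sum at 169 to 184 and 154 to 196 FPKM, and none passed. Smooth muscle and pericyte markers summed to 328 to 376 FPKM in the controls and 219 to 267 FPKM in the knockouts, with 2 of 8 lower and 2 higher. The 6 conduction and nodal markers summed to 5.23 to 8.59 FPKM in the controls and 2.63, 7.20 and 2.83 FPKM in the knockouts, again highest in replicate 2. The calls of Adgre1 (macrophage), Tcf21 (fibroblast), and Rgs5 and Pdgfrb (smooth muscle and pericyte) were lost without certain libraries. With no filter these calls were lost too (limma adjusted p = 0.053, 0.10, 0.078 and 0.0502). The part of these shifts in the channel results was not tested.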

How the data were processed

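Total RNA of 6 mouse hearts' libraries was sequenced after removal of ribosomal RNA and random priming, per the labels' protocols. The values used are FPKM per locus as deposited by the authors, one table per library. The submitters' processing notes name HISAT 0.1.6, HISAT2 2.0.1, StringTie 1.1.0, Cufflinks 2.2.1, Cuffdiff, bedtools, Picard 1.23 and SAMtools 1.3, and as genome builds mm10 and GRCm38. Which of them made these values is not given in the sources used here, nor are the annotation and the handling of strand. Of the 44450 loci, 950 hold more than 1 gene name, and fragments of such genes are not separated.

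The 12181 loci that reached 1 FPKM in 3 or more libraries were tested with limma 3.58.1 in R 4.3.3 on log2(FPKM + 0.5) with a variance trend, knockout against control, with Benjamini-Hochberg adjustment over all of them and a threshold of 0.05. No count model was fitted, since FPKM is normalized. Depth is not stated. Relative depth was read from the most frequent ratio of low values between libraries, which are multiples of one fragment. On data simulated for 12181 loci with 200 changed, the test recovered 52% of 2-fold and 89% of 4-fold changes, and 4.08% of its calls were false. The simulated loci varied independently and all changes were downward. In the data 35.7% of loci tested were called, in both directions, so these rates need not hold there. Alternatives were other pseudocounts (0.1 and 1), filters, scalings, array weights, no trend, a replicate block, loci with several names left out, and each library left out.

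Members and gene lists were chosen with earlier results of these data known. The genes named are the members tested, members under the filter that are known in heart or whose groups do not overlap, and the partners and regulators that passed. A few of these genes enter the counts and sums and are not reported here by name. Positions and promoters come from RefSeq (GRCm38.p6), which matched 98 of the 99 members. Sequences of other members, and of their proteins, were not used here.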

Additional observations from a re-analysis of the deposited data

How the results depend on the processing

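The count of lower members was 14. It was 11 with at least 1 FPKM required in all 6 libraries, 10 with libraries scaled to one summed FPKM, 15 with no filter, 13 with median-of-ratios scaling and 17 with array weights, and 14 with either other pseudocount, quantile normalization, no trend or loci with several names left out. With each library left out it ran from 9 (without control replicate 2) to 16 (without knockout replicate 2). The count of higher members was 1, and became 3 with no filter, 0 with the stricter filter and 1 with each other setting and each library left out (range 1 to 1). Deviations of libraries with the same replicate number correlated at -0.08, -0.06 and -0.01. These are deviations from means of only 3 libraries, so they cannot decide whether the samples were paired. With the replicate block 12 members were lower and 1 was higher. Scaling to one sum moved the median of all loci to 0.19 and that of the members to -0.51, and gave 3229 higher and 1402 lower loci. The members' median then lay 0.70 below that of all loci, against 0.71 as reported. The signs that changed were all of members that did not pass. With single libraries left out Kcne1 ran from -0.95 to 0.077, with 0.077 without knockout replicate 2. Kcnt2 ran from -0.13, without that same library, to 0.22. Kcnj8 ran from -0.21 to 0.0054, the latter without control replicate 3, and was 0.12 with scaling to one sum. Kcnk6 ran from -0.046 to 0.090, below 0 without control replicate 3 (-0.046) and without knockout replicate 2 (-0.045). Kcnq1ot1 was -0.046 with array weights. The cause was not tested. Of the 14 lower calls, 9 held with any library left out. The fits with a library left out kept the loci chosen on all 6 libraries, so the filter itself was not set anew. Kcnv2, which passed the filter through the controls alone, is among the 9.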
